A study of Mus musculus with 32 samples.

Results

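The VHQ52 family of the mouse heavy chain locus (IGHV2) was read here through 6 of its genes, IGHV2-3, IGHV2-5, IGHV2-6, IGHV2-6-8, IGHV2-9 and IGHV2-9-1, that is, every IGHV2 gene seen other than IGHV2-2. Members were clonotypes of the series table whose best V gene began with IGHV2 and was not IGHV2-2, a choice that used no level or test. They numbered 73 of the 138 productive clonotypes of the Vhq52 samples and of 908 in the whole series, and the remaining 65 of Vhq52 were IGHV2-2. The 6 genes were among 43 V genes of the series, and no IGHV2 clonotype appeared in the samples made with primers of the other VH families, so the label held. Each member clonotype had a single V gene hit.

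The samples were genomic DNA of bone marrow pro-B cells, sorted as B220+ CD43+ IgM- CD25-, from untreated mice 8 weeks old. There were 5 WT mice (1418, 1432, 1484, 1485 and 1536) and 4 Setd2 KO mice (1421, 1464, 1487 and 1500) with a Vhq52 sample. The promoter or Cre behind the knockout is not given in the sources used here, and Setd2 itself cannot be read from these joins. A PCR between a Vhq52 family primer and JH4 was run and a 500 bp product was cut from the gel. Productive reads per mouse ran from 2012 to 7585, all samples of Vhq52 carried 1 sequencing batch label, and a clonotype needed at least 2 reads. Reads carry no molecular identifiers, so the Wilson intervals given for shares of reads cover counting error alone.

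A heavy chain variable region is assembled in the pro-B cell by joining a D to a J gene and then a V gene to that unit. Nucleases trim the gene ends, and terminal transferase adds bases that no gene encodes, so that the junction, the CDR3, is close to a signature of 1 recombination event. The VHQ52 genes lie in the part of the V gene array nearer to the D genes, interspersed with VH7183 genes, and SETD2 places the trimethyl mark on lysine 36 of histone H3. By start position in the RefSeq gene table (assembly GRCm38.p6) the order, starting from the D-proximal side, was IGHV2-2, IGHV2-3, IGHV2-5, IGHV2-6, IGHV2-9-1, IGHV2-6-8 and IGHV2-9. The deposited tables name no genome build, so no coordinates are given.

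The V genes bring their own start to the CDR3, and the genes differ there. The lines that follow show the longest V-encoded stretch seen in the deposited CDR3 sequences, 5′ to 3′ from the conserved cysteine codon, with the third codon in capitals.
IGHV2-2: tgtgccAGAaa
IGHV2-3: tgtgccAAAcc
IGHV2-5: tgtgccAAAaa
IGHV2-6: tgtgccAGA
IGHV2-6-8: tgtgccAGTg
IGHV2-9: tgtgccAAAc
IGHV2-9-1: tgtgccAGAaa
In IGHV2-3, IGHV2-5 and IGHV2-9 the third codon was AAA (lysine), and in IGHV2-6, IGHV2-9-1 and IGHV2-2 it was AGA (arginine). The stretch of IGHV2-9-1 was letter for letter that of IGHV2-2. Clonotypes mostly kept the codon: AAA stood in 21 of 24 clonotypes of IGHV2-3 and 9 of 9 of IGHV2-9, and AGA in 8 of 9 of IGHV2-6 and 17 of 19 of IGHV2-9-1. IGHV2-5 kept AAA in 4 of 10. A join held by several mice counts once in each, and the 9 clonotypes of IGHV2-9 were 6 distinct joins. The 2 clonotypes of IGHV2-6-8 had AGG and AGT. For IGHV2-6-8 the printed stretch lacks 1 base of the gene, since neither clonotype held its whole end. By the reference the authors aligned to, the CDR3 part of the V gene was 11 bases long in IGHV2-2, IGHV2-3, IGHV2-5, IGHV2-6-8 and IGHV2-9-1, 10 in IGHV2-9 and 9 in IGHV2-6.

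The largest clonotype of each gene is shown next, as the join with the most reads of its gene. Capitals mark bases aligned to no V, D or J gene. Lower case includes bases where the alignment ran past the end of the V gene, in 9 of the 73 members (by up to 3 bases), as the g after aaac in the IGHV2-9 join, or past the start of the J gene, in 11.
IGHV2-9, WT mouse 1418, no D, IGHJ4: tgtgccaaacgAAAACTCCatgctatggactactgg
IGHV2-9-1, WT mouse 1432, IGHD2-3, IGHJ4: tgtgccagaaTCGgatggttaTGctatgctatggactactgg
IGHV2-3, KO mouse 1421, IGHD2-6, IGHJ4: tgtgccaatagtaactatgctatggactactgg
IGHV2-6, WT mouse 1418, no D, IGHJ4: tgtgccagaCAGAAGatggactactgg
IGHV2-5, WT mouse 1485, IGHD2-6, IGHJ4: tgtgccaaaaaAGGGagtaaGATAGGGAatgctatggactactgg
IGHV2-6-8, KO mouse 1487, IGHD1-1, IGHJ4: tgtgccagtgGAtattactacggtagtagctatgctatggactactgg
All of these used IGHJ4, the J gene next to the PCR primer. The IGHV2-9 join had 3374 of 7585 productive reads (44.5%, Wilson 95% interval 43.4% to 45.6%). The IGHV2-9-1 join had 2900 of 6807 (42.6%, 41.4% to 43.8%), and the IGHV2-3 join had 2869 of 4180 (68.6%). The IGHV2-6 join had 1913 of 7585 (25.2%, 24.3% to 26.2%) in the same mouse as that of IGHV2-9. The largest of IGHV2-5 had 273 of 2012 (13.6%) and that of IGHV2-6-8 had 66 of 2992 (2.21%).

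IGHV2-3 was the most frequent of the 6 genes, with 24 clonotypes. They were 20 distinct joins, against 14 for IGHV2-9-1, the next. In WT mouse 1536, 4 of its entries closely resembled larger clonotypes, as described further on. In WT mice 1418, 1432, 1484, 1485 and 1536 it gave 4, 1, 5, 1 and 10 clonotypes, or 26.7%, 6.67%, 17.9%, 10% and 40% of those of the mouse. In KO mice 1421, 1464, 1487 and 1500 it gave 2, 0, 0 and 1, or 28.6%, 0%, 0% and 9.09%. It was present in every WT mouse and in 2 of 4 KO mice, and the ranges overlapped, since KO mouse 1421 exceeded 4 of 5 WT mice. All 4 entries of WT mouse 1418 had only 4 to 7 reads and were joins that WT mouse 1536 held with 190 to 533 reads. The single entries of WT mouse 1485 and KO mouse 1500 had 8 and 4 reads. The shares and the test below count such entries in full, and the test was not repeated without shared joins. The mean share was 20.2% ± 13.5 over the WT mice (SD, n = 5) against 9.42% ± 13.5 over the KO mice (SD, n = 4). In edgeR's quasi-likelihood test the log2 fold change, KO over WT, was -1.64, with a Benjamini-Hochberg adjusted p of 0.179, which did not pass. It ranged from -2.78 without KO mouse 1421 to -1.16 without KO mouse 1487. By exact permutation test of the shares p was 0.270.

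IGHV2-5 had 10 clonotypes, of which 9 were in WT mice. WT mice 1418, 1432, 1484, 1485 and 1536 held 0, 2, 3, 2 and 2 of them, and KO mouse 1500 held the remaining 1. The mean share was 10.4% ± 7.33 over the WT mice (SD, n = 5) against 2.27% ± 4.55 over the KO mice (SD, n = 4), with 1 WT mouse and 3 KO mice at 0. The edgeR log2 fold change was -1.79 with an adjusted p of 0.239, and the exact permutation p was 0.103.

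IGHV2-9-1 had 19 clonotypes and was in every mouse except KO mouse 1421. WT mice 1418, 1432, 1484, 1485 and 1536 held 2, 2, 5, 1 and 3, and KO mice 1464, 1487 and 1500 held 3, 1 and 2. The shares were 13.3% ± 2.89 over the WT mice (SD, n = 5) against 12.1% ± 10.5 over the KO mice (SD, n = 4). Its edgeR log2 fold change was -0.06 with an adjusted p of 0.924. WT mice ran from 10% to 17.9% and KO mice from 0% to 23.1%.

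The other 3 genes had under 10 clonotypes each and were left out of the edgeR test. IGHV2-6 had 9 clonotypes in 6 mice, 1 each in WT mice 1418, 1432, 1484 and 1536, and 3 and 2 in KO mice 1464 and 1500. IGHV2-9 had 9 in 5 mice: 1, 2 and 1 in WT mice 1418, 1484 and 1536, and 2 and 3 in KO mice 1464 and 1487. IGHV2-6-8 had 1 each in WT mouse 1536 and KO mouse 1487. The mean share of IGHV2-6 was 4.18% ± 2.75 over the WT mice (SD, n = 5) against 10.3% ± 12.1 over the KO mice (SD, n = 4), and by exact permutation test p was 0.341. That of IGHV2-9 was 3.56% ± 3.47 in WT (SD, n = 5) and 9.20% ± 10.9 in KO mice (SD, n = 4), with an exact permutation p of 0.373. In both genes the highest share was in a KO mouse, and both genotypes had mice at 0. These shares count low-read entries in full. In KO mouse 1464 an IGHV2-6 entry of 22 reads and an IGHV2-9 entry of 2 reads closely resembled larger clonotypes. An IGHV2-9 entry of KO mouse 1487 (10 reads) and that of WT mouse 1536 (2 reads) were a join abundant in other mice.

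Of the 4 V genes tested by edgeR (IGHV2-2 and the 3 members with at least 10 clonotypes), 0% passed an adjusted p of 0.05. At an unadjusted p under 0.05 edgeR gave 1 gene, IGHV2-3, and DESeq2 gave 0. With 4 genes and few clonotypes, the test shares its estimate of spread over few values. Among these 4 genes, the clonotype shares of no pair rose together clearly over the 9 mice: the highest Spearman rho was 0.118, for IGHV2-5 and IGHV2-9-1, followed by 0 for IGHV2-3 and IGHV2-5. The largest in size was -0.710, for IGHV2-9-1 and IGHV2-2. These shares have a common denominator in each mouse.

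**Figure D1:**
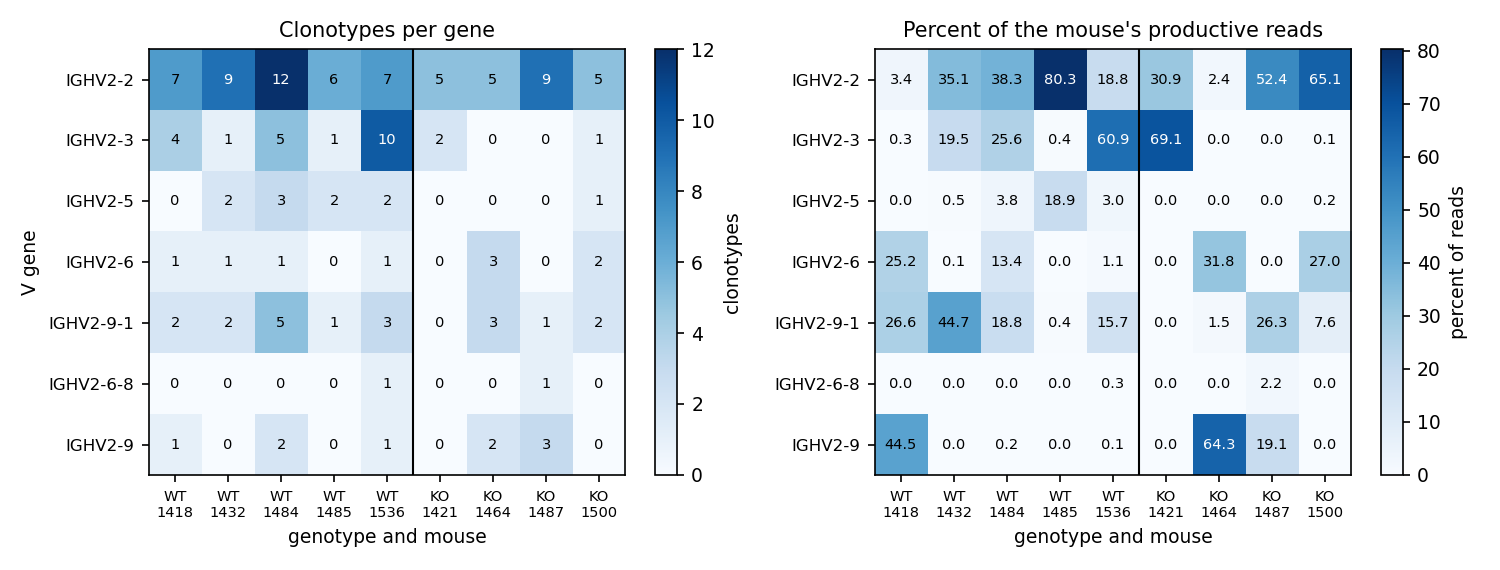
Clonotypes (left) and percent of productive reads (right) of each IGHV2 gene, rows in locus order, in each mouse of Vhq52, with WT mice left of the line and KO mice right of it. IGHV2-3 and IGHV2-9-1 were spread over 7 and 8 mice, while reads concentrated in different genes in different mice.

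In reads, the mice were far apart. The 6 genes together held 96.6%, 64.9%, 61.7%, 19.7% and 81.2% of productive reads in WT mice 1418, 1432, 1484, 1485 and 1536, and 69.1%, 97.6%, 47.6% and 34.9% in KO mice 1421, 1464, 1487 and 1500. The ranges of the genotypes overlapped almost entirely. The mean was 64.8% ± 28.8 over the WT mice (SD, n = 5) against 62.3% ± 27.4 over the KO mice (SD, n = 4), so KO lay -2.54 points from WT (-46.1 to 42.5 at 95% confidence; exact permutation p = 0.921). Of clonotypes, the genes gave 52.5% ± 13.4 over the WT mice (SD, n = 5) against 45.1% ± 15.5 over the KO mice (SD, n = 4), by exact permutation test p = 0.452. Different genes led in different mice: IGHV2-9 had 64.3% of reads in KO mouse 1464, IGHV2-3 had 60.9% in WT mouse 1536, and IGHV2-9-1 had 44.7% in WT mouse 1432. IGHV2-6 had 31.8% in KO mouse 1464. IGHV2-5 reached 18.9% in WT mouse 1485 and stayed at or under 3.75% in the other mice, and IGHV2-6-8 reached 2.21%.

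A single member clonotype took over 25% of the productive reads of a mouse in 9 cases, in 6 of the 9 mice. There were 4 such joins in WT and 5 in KO mice. They came from IGHV2-9 in WT mouse 1418 (44.5%) and KO mouse 1464 (64.2%), from IGHV2-6 in WT mouse 1418 (25.2%) and KO mice 1464 (30.3%) and 1500 (26.6%), from IGHV2-9-1 in WT mice 1418 (26.5%) and 1432 (42.6%) and KO mouse 1487 (26.3%), and from IGHV2-3 in KO mouse 1421 (68.6%). The IGHV2-6 join of KO mouse 1500 was 57 bases long and had a long IGHD1-1 stretch.
IGHV2-6, KO mouse 1500, IGHD1-1, IGHJ4: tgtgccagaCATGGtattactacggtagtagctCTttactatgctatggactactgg
Of these 9 cases, 7 were sequences that another mouse also held. Among member reads alone, the largest clonotype held 46.1%, 65.7%, 21.7%, 68.8% and 21.95% in WT mice 1418, 1432, 1484, 1485 and 1536, and 99.3%, 65.8%, 55.2% and 76.2% in KO mice 1421, 1464, 1487 and 1500. KO mice 1421 and 1500 lay above every WT mouse, and the other 2 KO mice fell within the WT range. WT averaged 44.8% ± 22.7 (SD, n = 5) against 74.1% ± 18.9 in KO mice (SD, n = 4), which is 29.3 points higher in KO (-7.44 to 65.9 at 95% confidence). By exact permutation test p was 0.103, and adjusted over 19 tests 0.565.

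Member clonotypes numbered 8, 6, 16, 4 and 18 in WT mice 1418, 1432, 1484, 1485 and 1536, and 2, 8, 5 and 6 in KO mice 1421, 1464, 1487 and 1500. WT mice 1484 and 1536 held most, and KO mouse 1421 fewest. At the common depth of 2012 reads WT mice had a geometric mean of 8.24 members against 4.60 for KO mice. On the log2 scale KO minus WT was -0.84 (-2.33 to 0.51 at 95% confidence; exact permutation p = 0.222). The mouse with the fewest reads, WT mouse 1485, had 4 of them at that depth.

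Joins found in more than 1 mouse are printed here because 60.2% of all member reads lay in them. The 73 entries were 60 distinct joins (CDR3 with V and J), and 10 of those (16.7%) stood in at least 2 mice.
IGHV2-9, no D, IGHJ4: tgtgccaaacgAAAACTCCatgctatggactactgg
IGHV2-9-1, IGHD1-1, IGHJ4: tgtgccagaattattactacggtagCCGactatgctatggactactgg
IGHV2-6, no D, IGHJ4: tgtgccagaCAGAAGatggactactgg
IGHV2-9-1, IGHD2-3, IGHJ4: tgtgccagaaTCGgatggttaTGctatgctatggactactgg
IGHV2-9-1, IGHD1-1, IGHJ3: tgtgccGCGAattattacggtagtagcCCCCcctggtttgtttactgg
IGHV2-9-1, no D, IGHJ4: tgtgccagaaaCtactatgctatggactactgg
IGHV2-3, IGHD2-6, IGHJ4 (42 bases): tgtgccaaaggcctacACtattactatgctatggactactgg
IGHV2-3, IGHD2-6, IGHJ4 (48 bases): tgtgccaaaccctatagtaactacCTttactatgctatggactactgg
IGHV2-3, IGHD3-2, IGHJ4: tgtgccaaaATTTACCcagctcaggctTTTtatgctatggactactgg
IGHV2-3, IGHD5-4, IGHJ4: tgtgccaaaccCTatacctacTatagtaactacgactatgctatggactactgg
Capitals again mark bases of no V, D or J gene. In 9 of the 10 the J gene was IGHJ4. The IGHV2-9 join with 8 inserted bases was in 4 mice, with 3374 reads in WT mouse 1418, 1442 in KO mouse 1464, 10 in KO mouse 1487 and 2 in WT mouse 1536. It was the largest clonotype of WT mouse 1418 and KO mouse 1464 and gave 0.334% of reads in KO mouse 1487 and 0.0669% in WT mouse 1536.

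The IGHV2-9-1 to IGHD1-1 to IGHJ4 join was in 3 mice, with 2012 reads in WT mouse 1418, 786 in KO mouse 1487 and 336 in KO mouse 1500 (26.5%, 26.3% and 7.60% of productive reads). The IGHV2-6 join had 1913 reads in WT mouse 1418 and 681 in KO mouse 1464 (25.2% and 30.3%). These joins were abundant in every mouse that held them. In 8 of the 10 shared joins, in contrast, the lowest count was under 5% of the highest.

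That unequal kind included all 4 shared IGHV2-3 joins, with 533, 378, 351 and 190 reads in WT mouse 1536 and 4, 5, 6 and 7 in WT mouse 1418. It also included the short IGHV2-9-1 join (461 reads in WT mouse 1536 and 3 in WT mouse 1418), the IGHV2-9-1 to IGHD2-3 join (2900 in WT mouse 1432 and 18 in KO mouse 1464) and the IGHJ3 join (146 and 6 in the same mice). In 5 of the shared joins both genotypes were represented, in 5 WT mice only, and in 0 KO mice only.

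WT mouse 1418 stood out: 8 of its 8 member clonotypes were also in another mouse. The share of member reads in shared joins was 100% there, 69.0% in WT mouse 1432, 78.9% in WT mouse 1536, 98.0% in KO mouse 1464, 55.9% in KO mouse 1487 and 21.8% in KO mouse 1500. WT mice 1484 and 1485 and KO mouse 1421 had 0 shared members. For IGHV2-2 it was 3 of 61 distinct joins, and 10.3% of its reads. The share of member clonotypes held by another mouse averaged 33.3% ± 40.8 over the WT mice (SD, n = 5) against 26.7% ± 22.6 over the KO mice (SD, n = 4), by exact permutation test p = 0.841. Whether a shared sequence arose in each mouse or passed between libraries was not tested, and mice that share sequences may not be independent. The single-sample clone lists, which hold clones from 1 read and were matched by CDR3 sequence alone, had 8 of the 60 distinct joins in more than 1 mouse, of which 2 stood in 1 mouse of the series table. They kept the IGHV2-9 join in the same 4 mice (1141, 632, 3 and 2 reads). The list of WT mouse 1418 lacked its copies of the IGHV2-3 to IGHD5-4, the 42-base IGHV2-3 and the short IGHV2-9-1 joins. That of KO mouse 1464 lacked its copies of the IGHJ3 and the IGHV2-9-1 to IGHD2-3 joins. In the lists this last join counted as shared through 1 read in KO mouse 1487, which had none in the series table.

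**Figure D2:**
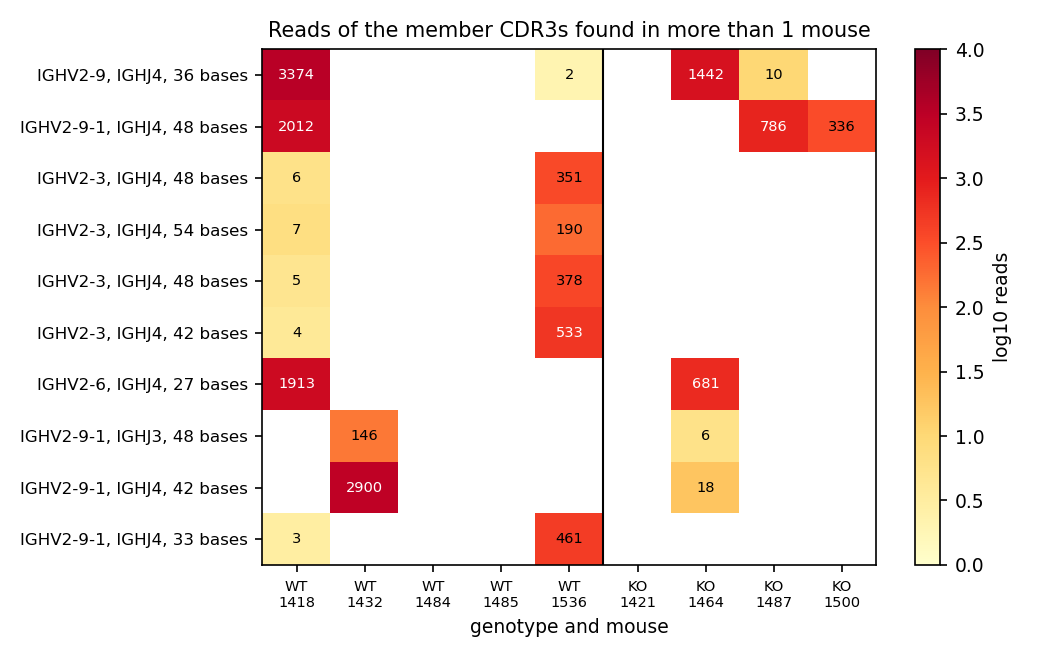
Reads of the 10 member joins found in more than 1 mouse of Vhq52, one row per join (V gene, J gene and CDR3 length in bases) and one column per mouse, coloured by log10 reads; blank cells had no entry. WT mouse 1418 held 8 of the 10 and KO mouse 1464 held 4.

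Some low-read members closely resembled a larger clonotype of the same mouse. There were 6 within 2 mismatches of a clonotype with at least 5 times their reads, and 3 more that were the start of 1 larger clonotype joined to the end of another. Of these 9, 8 had 2 reads, the minimum of the table, which 11 members had in all. An example from KO mouse 1464 is the IGHV2-6 entry of 22 reads beside that of 681 reads, with the differing base in capitals.
IGHV2-6, 681 reads: tgtgccagacagaagatggactactgg
IGHV2-6, 22 reads: tgtgccagacagaagGtggactactgg
An example of the other kind is a 57-base IGHV2-3 entry of 2 reads in WT mouse 1536. Its first 33 bases were those of a join with 190 reads, and its last 37 those of a join with 378 reads, with an overlap. Capitals mark the bases after the first 33.
IGHV2-3, 190 reads: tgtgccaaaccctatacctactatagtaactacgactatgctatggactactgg
IGHV2-3, 378 reads: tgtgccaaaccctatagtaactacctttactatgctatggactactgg
IGHV2-3, 2 reads: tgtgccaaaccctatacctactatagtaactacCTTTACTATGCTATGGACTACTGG
How such entries arose was not tested. WT mouse 1536 held 4 of the 9, and WT mouse 1484 and KO mouse 1464 held 2 each.

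IGHJ4 was the J gene of 47 of the 73 member clonotypes, IGHJ3 of 15, IGHJ2 of 8 and IGHJ1 of 3. By gene, IGHJ4 was in 8 of 9 clonotypes of IGHV2-9, which were 6 distinct joins, with 1 IGHJ4 join counted in each of 4 mice. IGHJ4 was also in 17 of 24 of IGHV2-3, 6 of 10 of IGHV2-5, 5 of 9 of IGHV2-6, 10 of 19 of IGHV2-9-1 and 1 of 2 of IGHV2-6-8. The share per mouse was 100%, 33.3%, 62.5%, 50% and 72.2% in WT mice 1418, 1432, 1484, 1485 and 1536, and 50%, 62.5%, 80% and 33.3% in KO mice 1421, 1464, 1487 and 1500. All KO mice lay within the WT range. The means were 63.6% ± 25.01 (SD, n = 5) and 56.5% ± 19.7 (SD, n = 4), with an exact permutation p of 0.690. IGHJ1 was found in 3 WT and 0 KO mice (5.69% ± 6.81, SD, n = 5, against 0%, by exact permutation test p = 0.167).

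In reads IGHJ4 was far ahead, with 98.1% of all member reads against 64.4% of clonotypes. Median reads per clonotype were 9, 8, 18 and 190 for IGHJ1, IGHJ2, IGHJ3 and IGHJ4, and the highest outside IGHJ4 was 146. In the 8 mice with both kinds, median reads of IGHJ4 against other joins were 2115 and 19 in WT mouse 1432, 235 and 21 in WT mouse 1484, 190.5 and 8 in WT mouse 1485, and 74 and 9 in WT mouse 1536. In KO mice 1421, 1464, 1487 and 1500 they were 2869 and 19, 22 and 9, 311.5 and 4, and 755.5 and 5.5. IGHJ4 joins were the larger in 8 of 8 mice. The mean log2 difference within mice was 4.70 ± 2.16 (SD, n = 8), or 25.9-fold, with an exact sign-flip permutation p of 0.00781, the smallest that 8 mice allow. Without shared joins the log2 difference was 4.28 (exact sign-flip permutation p = 0.0313), but it no longer had the same sign in every mouse. In WT mouse 1536 and KO mouse 1464 the mean log2 reads of IGHJ4 joins then lay below that of the others. In KO mouse 1464 the joins left had 22 and 2 reads with IGHJ4 and 11 and 9 reads with other J genes. For IGHV2-2, IGHJ4 joins were also larger on average, 8.34-fold over 9 mice (exact sign-flip permutation p = 0.0313). A primer at JH4 gives longer products from joins to the other J genes, and a 500 bp band was cut. The part of product length in this difference was not tested. This test was added after the values had been seen.

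**Figure D3:**
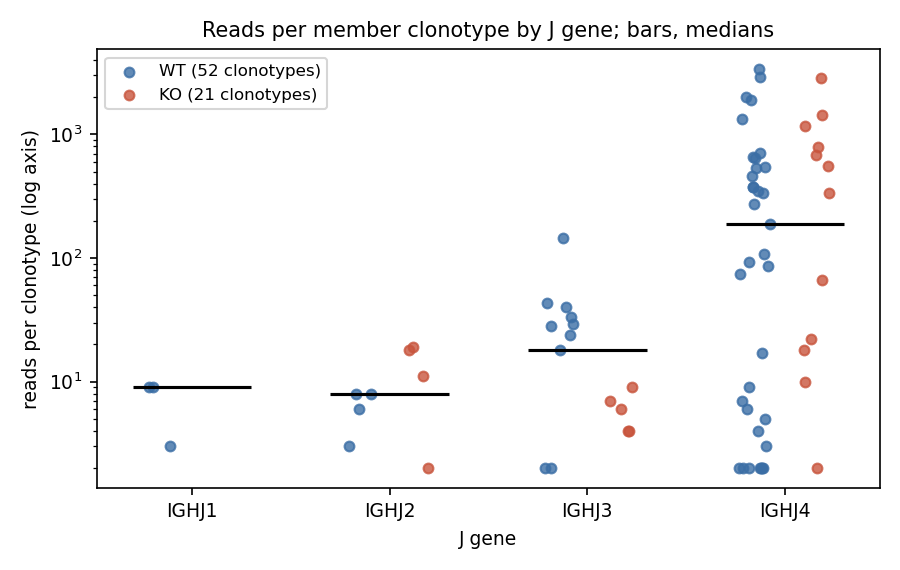
Reads per member clonotype on a log axis by J gene, 1 point per clonotype, WT in blue and KO in red, with bars at the medians. IGHJ4 joins reached 3374 reads, while joins to IGHJ1, IGHJ2 and IGHJ3 stayed at or under 146.

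A D gene was named in 62 of the 73 member clonotypes. The DSP2 family (IGHD2) gave 34, DFL16 (IGHD1) 16, DST4 (IGHD3) 4, DQ52 (IGHD4) 4 and the genes named IGHD5 another 4. The single most common was IGHD1-1, in 16 clonotypes of 8 mice, followed by IGHD2-4 and IGHD2-6 with 9 each. DSP2 was the commonest family in IGHV2-3 (12 of 23 with a D), IGHV2-5 (5 of 10), IGHV2-6 (3 of 6), IGHV2-9 (3 of 4) and IGHV2-9-1 (10 of 17), and no IGHV2-9 clonotype carried DFL16. DSP2 had 56.7% ± 19.4 (SD, n = 5) of clonotypes with a D in WT against 39.6% ± 12.5 (SD, n = 4) in KO mice, by exact permutation test p = 0.198. DFL16 had 22.2% ± 7.67 (SD, n = 5) and 35.4% ± 29.2 (SD, n = 4), with an exact permutation p of 0.381. That difference of 13.25 points was 2.83 without KO mouse 1500 and 25.06 without KO mouse 1421 (exact permutation p = 0.0536). DQ52, the D gene next to the J genes, had 6.67% ± 14.9 (SD, n = 5) and 18.8% ± 23.9 (SD, n = 4), with an exact permutation p of 0.405, and its difference of 12.1 points was 1.67 without KO mouse 1421. DST4 was seen in 3 of 5 WT mice and 0 of 4 KO mice (exact permutation p = 0.167).

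In 3 of the member clonotypes with a D named, by the deposited positions, no aligned base lay within the D gene. These were the leading IGHV2-3 join of KO mouse 1421, an IGHV2-5 join of KO mouse 1500 and the IGHV2-6-8 join of WT mouse 1536. With such calls taken as no D, DSP2 was 32.3 points lower in KO than in WT mice (exact permutation p = 0.0635), and the share of clonotypes with a D was -22.2 points in KO minus WT in place of -6.67 points (exact permutation p = 0.127 and 0.683). The IGHV2-3 join is 1 of the 2 members of KO mouse 1421. Its bases between V and J also stand within the IGHD2-6 part of the 48-base IGHV2-3 join printed above. They stand as well within the IGHD1-1 part of the IGHV2-6-8 join of KO mouse 1487. Whether the IGHV2-3 join holds a D was not tested, and the values of this setting depend on how it is called.

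The 11 members with no D named all used IGHJ4 and all kept an untrimmed V end. They were 5 IGHV2-9, 3 IGHV2-6, 2 IGHV2-9-1 and 1 IGHV2-3 entries, but only 6 distinct joins, of which 4 were not within 2 mismatches of a larger one. Among the 6 IGHV2-2 clonotypes with no D, IGHJ4 was in 1. Members with no D had a mean CDR3 of 33.8 ± 5.38 bases (SD over 11 clonotypes) against 45.2 ± 6.15 bases (SD over 62) with a D.

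Member CDR3 sequences were 27 to 60 bases long, with a median of 42. The mean by gene was 45.9 ± 6.59 bases (SD, 24 clonotypes) for IGHV2-3, 43.2 ± 3.52 (10) for IGHV2-5, 40.7 ± 11.4 (9) for IGHV2-6, 42.3 ± 9.54 (9) for IGHV2-9 and 42.8 ± 5.90 (19) for IGHV2-9-1. The spread within IGHV2-6, from 27 to 57 bases, exceeded every difference between these means. The mean per mouse was 42, 45.5, 45.9, 42 and 45.7 bases in WT mice 1418, 1432, 1484, 1485 and 1536, and 31.5, 37.5, 43.2 and 44 bases in KO mice 1421, 1464, 1487 and 1500. KO mice 1421 and 1464 lay below every WT mouse, and the other 2 lay inside the WT range. The means were 44.2 ± 2.03 bases in WT (SD, n = 5) against 39.05 ± 5.81 in KO mice (SD, n = 4), and KO minus WT was -5.17 bases (-12.3 to 1.19 at 95% confidence). By exact permutation test p was 0.0635, and adjusted over 19 tests 0.565. It was -2.65 bases without KO mouse 1421, which held 2 members, and -1.69 bases weighted by reads, where p was 0.675 by exact permutation test. Without shared joins, which left WT mouse 1418 with no member and out of the test, it was -6.25 bases (exact permutation p = 0.0857).

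Inserted bases, those assigned to no gene, averaged 6.11 ± 3.75 (SD over 73 clonotypes) and ran from 0 to 16. They averaged 4.92 in IGHV2-3, 7.10 in IGHV2-5, 9 in IGHV2-6, 5 in IGHV2-6-8, 8.67 in IGHV2-9 and 4.63 in IGHV2-9-1. The highest means were those of IGHV2-6 and IGHV2-9, whose reference V ends stop after 9 and 10 bases, where the others run to 11. Bases beyond a V end count as inserted unless the alignment took them in. Inserted stretches of IGHV2-6 mostly began with CA. The part of the shorter ends in these means was not tested. Of 62 members with a D, 15 had no inserted base between V and D and 9 had none between D and J. There were 2 joins with none at all, the leading IGHV2-3 join of KO mouse 1421 (printed above) and an IGHV2-5 join of WT mouse 1484 with 93 reads.
IGHV2-5, WT mouse 1484, IGHD2-7, IGHJ4: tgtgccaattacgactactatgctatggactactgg
At the other end, an IGHV2-6 join of KO mouse 1500 with 18 reads had 16 inserted bases.
IGHV2-6, KO mouse 1500, IGHD1-1, IGHJ2: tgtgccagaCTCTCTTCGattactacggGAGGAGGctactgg
Per mouse the mean was 4.38, 9.33, 5.94, 6.5 and 6.06 bases in WT mice 1418, 1432, 1484, 1485 and 1536, and 0.5, 7, 4.8 and 7.33 bases in KO mice 1421, 1464, 1487 and 1500. Only KO mouse 1421 lay outside the WT range. The means were 6.44 ± 1.81 (SD, n = 5) and 4.91 ± 3.15 (SD, n = 4), with an exact permutation p of 0.444. KO minus WT was -1.53 bases, -0.0625 without KO mouse 1421, which held 2 members, and -0.754 with D calls outside the D gene taken as no D. Over distinct joins, G and C made up 63.1% of 379 inserted bases (Wilson 95% interval 58.1% to 67.8%), 63.7% in WT and 61.4% in KO mice. G alone was 42.0%. IGHV2-2 had 68.1% of 417 bases (63.5% to 72.4%).

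The V end kept all its bases in 35 of 73 members. Trimming averaged 1.5 bases in IGHV2-3, 2.20 in IGHV2-5 and 1.16 in IGHV2-9-1, but 0.33 in IGHV2-6, where 8 of 9 were untrimmed, and 0 in IGHV2-9, where 9 of 9 were. IGHV2-6 and IGHV2-9 are the genes whose reference ends early, after 9 and 10 bases of CDR3, and the others run to 11. Trimming in these genes is measured from that shorter end. The 9 clonotypes of IGHV2-9 were 6 distinct joins. The J start was trimmed by 3.01 bases on average, and 21 of 73 were untrimmed. Per mouse V end trimming averaged 1.43 ± 0.777 bases over WT mice (SD, n = 5) and 1.29 ± 0.929 over KO mice (SD, n = 4), J start trimming 2.90 ± 0.701 and 3.66 ± 1.05, and D trimming 7.38 ± 1.19 and 9.48 ± 2.0004. By exact permutation test p was 0.746, 0.238 and 0.0952. Taking D calls outside the D gene as no D left a D trimming difference of 0.04 bases in place of 2.10 (exact permutation p = 0.976). That setting drops the leading IGHV2-3 join of KO mouse 1421, whose deposited positions gave 19 trimmed bases for a D gene of 17.

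**Figure D4:**
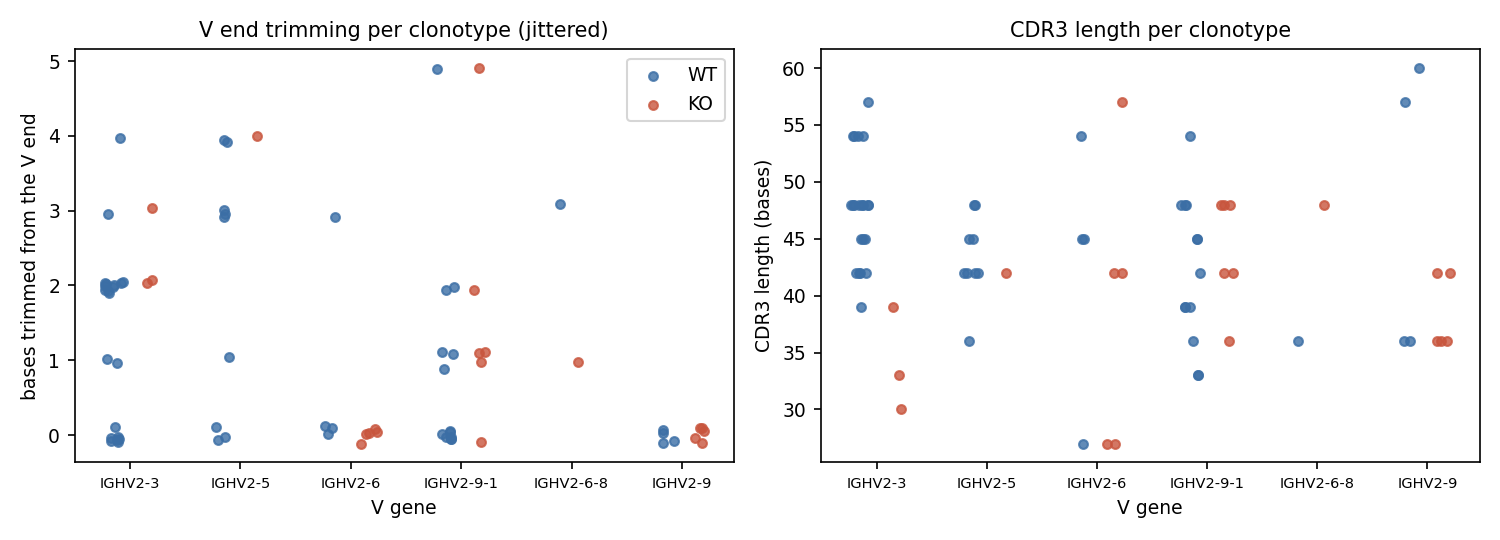
Bases trimmed from the V end (left, jittered around whole numbers) and CDR3 length in bases (right) of each member clonotype, genes in locus order, WT in blue and KO in red. All 9 IGHV2-9 and 8 of 9 IGHV2-6 clonotypes were untrimmed, and IGHV2-3 lengths were 39 to 57 bases in WT mice.

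In all, 19 measures of the members were compared between KO and WT mice, and 0 passed the adjustment (lowest adjusted p = 0.565). The smallest p of 5 against 4 mice is 0.00794 by exact permutation test.

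Against IGHV2-2 in the same mice, the members had the higher IGHJ4 share by point estimate. The share was 60.4% ± 21.7 for the 6 genes and 27.0% ± 13.2 for IGHV2-2 (SD, n = 9), higher in 7 of 9 mice. In WT mice 1418, 1432, 1484, 1485 and 1536 the values of the members and of IGHV2-2 were 100% and 14.3%, 33.3% and 44.4%, 62.5% and 33.3%, 50% and 16.7%, and 72.2% and 42.9%. In KO mice 1421, 1464, 1487 and 1500 they were 50% and 20%, 62.5% and 20%, 80% and 11.1%, and 33.3% and 40%. WT mouse 1432 and KO mouse 1500 ran the other way. The mean difference was 33.5 points, with an exact sign-flip permutation p of 0.0156 and an adjusted p of 0.219 over 14 measures. With the mouse not used as a block, the adjusted p was 0.0167 by exact permutation test. Without shared joins, which left WT mouse 1418 with no member, the difference over the other mice was 24.7 points (exact sign-flip permutation p = 0.0625). Leaving out WT mouse 1418 alone gave 26.9 points.

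The other 13 measures had exact permutation p-values from 0.125 to 0.922. CDR3 length was 41.9 ± 4.70 bases for the members and 40.9 ± 3.42 for IGHV2-2 (SD, n = 9, exact permutation p = 0.504). V end trimming was 1.37 ± 0.795 and 1.89 ± 0.743 bases (SD, n = 9), lower in the members in 7 of 9 mice (exact permutation p = 0.184), and -0.82 bases without WT mouse 1432 (exact permutation p = 0.0156).

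Members had longer CDR3 sequences than IGHV2-2 in WT mice and shorter ones in KO mice by point estimate. The difference within mice was 3.43, 8.5, 2.44, 4.5 and -1.90 bases in WT mice 1418, 1432, 1484, 1485 and 1536, and -6.90, -3.30, 1.20 and 1.40 bases in KO mice 1421, 1464, 1487 and 1500. Of WT mice 4 of 5 were positive, and of KO mice 2 of 4. The genotype difference of these values was -5.29 bases (exact permutation p = 0.0873, adjusted p = 0.0952 over both measures). It was -6.62 bases without WT mouse 1536 (exact permutation p = 0.0286) and -3.63 bases without KO mouse 1421. For inserted bases it was -3.19 (exact permutation p = 0.0952), and -4.80 without KO mouse 1464 (exact permutation p = 0.0179).

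**Figure D5:**
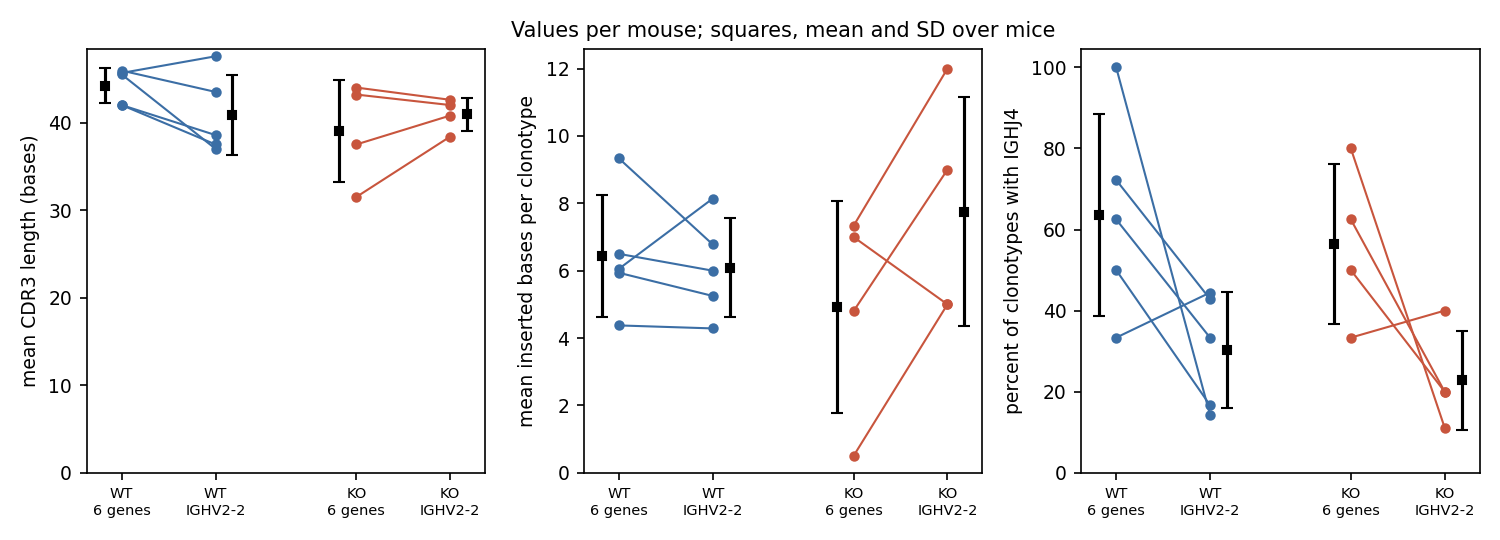
Mean CDR3 length, mean inserted bases and percent of clonotypes with IGHJ4 in each mouse, for the 6 genes and for IGHV2-2, joined by a line per mouse (WT blue, KO red). Squares with bars are mean and SD over 5 WT or 4 KO mice; the IGHJ4 share was higher for the 6 genes in 7 of 9 mice.

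Against the IGHV5 genes of the Vh7183 samples (151 clonotypes of 9 genes in 10 mice), the members were trimmed more at the V end. Trimming averaged 1.37 ± 0.795 bases (SD, n = 9) in the members and 0.366 ± 0.337 (SD, n = 10) in IGHV5, a difference of 1.002 bases, by exact permutation test p = 0.00124 and adjusted p = 0.00498 over 4 measures. With the mouse as a replicate block the paired difference was 0.991 bases over 9 mice (exact sign-flip permutation p = 0.0625, adjusted p = 0.25), which did not pass. Nor did the value weighted by reads, 0.530 bases (adjusted p = 0.182 by exact permutation test), or that with at least 10 reads per clonotype, 0.790 bases (adjusted p = 0.123 by exact permutation test). The reference V ends differ in length between the families, and the part of that in this difference was not tested. In IGHV5, 134 of 151 clonotypes belonged to genes ending after 9 bases and were trimmed by 0.254 bases on average, close to the 0.333 of the 9 IGHV2-6 clonotypes. The 17 clonotypes of IGHV5-2, which runs to 11 bases, had 1.176, against 1.53 for the 55 member clonotypes of that kind. The 9 clonotypes of IGHV2-9, which ends after 10 bases, had 0, and the IGHV5 genes ending after 9 bases ranged from 0 to 1. Family, PCR and sequencing batch cannot be told apart, since each of these families had its own primer and its own batch label. CDR3 length (41.9 and 42.3 bases), inserted bases (5.76 and 6.82) and the IGHJ4 share (60.4% and 47.4%) had exact permutation p-values of 0.838, 0.304 and 0.232.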

How the data were processed

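The 9 Vhq52 samples, 1 per mouse, hold V(D)J joins amplified from pro-B cell DNA, and the mouse was the replicate. The authors deposited a series table of productive clonotypes with counts of reads per clonotype, not normalized, and other columns with positions and trimmed lengths in bases. The columns follow the layout of MiXCR, a tool named in the title of the series; version, settings and build were not given in the sources. The authors' text columns of the V part were 1 base short of the positions in 908 of 908 clonotypes, so parts were cut from the CDR3 by position. Of the series table, 2 libraries that matched no sample in use (22 clonotypes) were not used. Single-sample lists with counts of reads served for sharing and as an alternative denominator (its value is in the closing section); 76.7% of member clonotypes, with 99.6% of member reads, were in the list of their mouse.

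Inserted bases lay between V, D and J, or between V and J where no D was named. For usage of V genes, the quasi-likelihood test of edgeR 4.0.16 (R 4.3.3, limma 3.58.1) was run on clonotypes per gene and mouse, genes with at least 10 clonotypes, offset by all clonotypes of the mouse; DESeq2 1.42.0 was an alternative, with dispersions estimated per gene. Other tests were two-sided exact permutations over mice, or exact sign flips within mice, with Benjamini-Hochberg adjustment over 19, 14, 4 or 2 measures (scipy 1.17.1 and numpy 2.4.6 under Python 3.11.15, with pandas 2.3.3; figures by matplotlib 3.10.9). Intervals of differences invert the permutation test at 95%. The tests were tested on simulated data. Named were all 6 genes, each gene's largest clonotype, clonotypes over 25% of a mouse's reads and those in at least 2 mice, and a few single entries chosen after their values were seen. Mouse numbers name the same animal across amplicons, which gives the replicate block. The genes, lists and tests were chosen with earlier results of these data known.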

Additional observations from a re-analysis of the deposited data

Results flagged for a closer look

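Values of 1 mouse stood apart from the rest of its group in 5 of the 50 groups examined. The rule flags about 1 in 20 by chance where values are continuous. In every case but that of IGHJ2 the other mice of the group were at 0, so that rate cannot be set against these flags. IGHJ2 was in 50% of member clonotypes of WT mouse 1485, which held 4 members, against at most 11.1% in the other WT mice. DQ52 made up 33.3% of members with a D in WT mouse 1432 and 0% in the other WT mice. IGHV2-5 gave 9.09% of clonotypes in KO mouse 1500 and 0% in the other KO mice. IGHV2-6-8 gave 4% in WT mouse 1536 and 7.14% in KO mouse 1487, 1 clonotype each, and 0% in the other mice.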

How the results depend on the processing

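Few clonotypes per mouse limit every value here: 2 to 18 members, 39.7% of them under 10 reads. The threshold is an unadjusted exact p of 0.05, except for V gene usage, where it is an adjusted p of 0.05. Requiring a single V gene hit changed nothing, since all members had one.

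Between KO and WT mice, at least 10 reads per clonotype gave 4.56 points for the members' share of clonotypes, -21.3 for IGHJ3, -2.37 for DFL16 and 10.8 for clonotypes held by another mouse, each with the sign turned, and 25.8 points for IGHJ2 (exact permutation p = 0.0476). Weighting by reads turned J start trimming (-0.281 bases), IGHJ2 (-0.266 points), IGHJ3 (-1.67) and IGHJ4 (2.07). Leaving out shared joins turned the share of reads (1.30 points) and gave -0.458 points for the share of clonotypes. WT mouse 1418 then had no member, so the other values of this setting are without it. They were 20.7 points for the largest clonotype's share, -2.29 for IGHJ4, 0.890 for DFL16, -3.13 for DST4 and -2.46 inserted bases. Over all clone reads of the single-sample lists the share of reads was -8.96 points (exact permutation p = 0.635). Leaving out 1 mouse gave -14.3 to 6.59 points for the share of reads, -3.51 to 8.99 for IGHJ3, -15.0 to 1.94 for IGHJ4, -15.0 to 13.8 for clonotypes held by another mouse, -13.3 to 4.17 for clonotypes with a D, and -0.549 to 0.151 bases for V end trimming.

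Members minus IGHV2-2: DFL16 turned to 5.95 points with at least 10 reads, 3.01 weighted by reads and 0.154 without near copies, and ran from -10.6 to 5.92 without 1 mouse. CDR3 length turned to -2.31 bases weighted by reads. Without shared joins, clonotypes with a D turned to 5.45 points and DST4 to -0.938, and IGHJ4 fell to 24.7 points. That setting also lost WT mouse 1418, which had no member left. Without 1 mouse V end trimming ran from -0.820 to -0.349 bases. The genotype difference of these values ran from -6.62 to -3.63 bases for CDR3 length and from -4.80 to -2.58 for inserted bases.

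Members minus IGHV5: the replicate block gave 0.991 bases and weighting by reads 0.530 bases for V end trimming, neither past the threshold, and 5.80 points for IGHJ4 by reads (exact permutation p = 0.0428). CDR3 length ran from -1.56 to 1.20 bases without 1 mouse. No alternative tool or set of mice gave a V gene with an adjusted p under 0.05 (lowest 0.0589, edgeR, IGHV2-3 without KO mouse 1421). The unadjusted edgeR p of IGHV2-3, 0.0447, ran from 0.0147 without KO mouse 1421 to 0.194 without WT mouse 1536, and was 0.0815 with TMM factors and 0.123 by DESeq2. The log2 fold change was -0.0709 for IGHV2-2 with TMM factors, and -0.54 to 0.20 for IGHV2-9-1 without 1 mouse. The cause of these changes was not tested. In all, 580 of the alternative values kept their direction and their side of these thresholds. Another 41 turned direction, 5 moved past a threshold and 3 fell short of one. The 580 include values that could not change, such as those with a single V gene hit. They also include counts of V genes passing, which have no direction. Alternatives on D calls, near copies, and mice left out against IGHV5 were chosen after seeing the data.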
